A study of Mus musculus with 9 samples.

Results

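The sarcomeric myosin heavy chain genes taken as members are Myh1, Myh2, Myh3, Myh4, Myh6, Myh7, Myh7b, Myh8 and Myh13. These 9 members were chosen by gene symbol, 9 of the 56805 genes in the deposited table, and all 9 passed the filter on low values. RNA came from the left TA (tibialis anterior, a fast muscle at the front of the shin) of male mice aged 13 months. There were 3 libraries of mice labelled Svil-KO (replicates 1, 3 and 4), 3 of mice labelled Svil-Mut (replicates 1, 2 and 4) and 3 of wild-type (WT) mice (replicates 1, 3 and 4), 1 library per mouse. The series is about muscle function and the response to insulin in mice with altered Svil, the gene of supervillin, a membrane-associated protein that binds actin and myosin II. The alteration of Svil, the strain background and any transgene are not described in the labels.

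The myosin heavy chain is the motor of the thick filament. Its ATPase head pulls on actin, and the isoform that a fibre makes sets much of its speed of shortening and its cost in ATP. Adult limb fibres are therefore classed by isoform, from slow type I (Myh7) through fast oxidative IIa (Myh2) and intermediate IIx (Myh1) to the fastest and most glycolytic IIb (Myh4), and the mouse TA is rich in the fast classes. Myh3 (embryonic) and Myh8 (perinatal) mark developing or regenerating fibres, Myh13 is the isoform of extraocular muscle, Myh6 is the alpha chain of the heart, and Myh7b is a slow-tonic isoform found in extraocular muscle and muscle spindles.

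Reads assigned to genes, recovered from the deposited values, numbered 36234428 to 48762188 per library, with 19282 to 19988 genes detected. Percentages of reads are of these assigned reads. Transcripts of the mitochondrial genome took 3.93% to 6.56% of them. Svil itself was listed at 6656 to 7402 normalized counts in the Svil-KO libraries, 3939 to 4615 in Svil-Mut and 8407 to 9373 in WT, with no overlap between the genotypes. Against WT, its log2 fold change was -0.35 in Svil-KO (limma with Benjamini-Hochberg adjustment over all genes, adjusted p = 0.997) and -1.01 in Svil-Mut (limma adjusted p = 0.000941). A count per gene cannot tell whether the Svil transcripts that remain are complete. The 7 skeletal muscle identity markers (Acta1, Ckm, Des, Myot, Tcap, Actn2 and Neb) were present in every library, with a summed normalized count of 3048806 to 3434726 in Svil-KO, 3661784 to 3807667 in Svil-Mut and 3152363 to 3180277 in WT. The labels give only muscle as the source, and nothing in the values of these markers went against it.

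The genes lie at 3 loci (GENCODE annotation of GRCm38, all protein coding). Myh3, Myh2, Myh1, Myh4, Myh8 and Myh13 stand in this order on the plus strand of chromosome 11, between positions 67078300 and 67371586, a stretch of 293.3 kb. The cardiac pair Myh6 and Myh7 lies on the minus strand of chromosome 14, between 54941921 and 54994626. Myh7b lies on the plus strand of chromosome 2, from 155611212 to 155634307. The 3 adult fast genes are neighbours in the cluster, Myh2 from 67171027 to 67197517, Myh1 from 67200052 to 67224575 and Myh4 from 67238029 to 67260446.

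The 250 bases upstream of the RefSeq transcript start (GRCm38.p6, plus strand) are shown for the 3 adult fast genes, which carry nearly all of the family's reads, and for their neighbour Myh8. The windows are chr11:67237562-67237811 for Myh4, chr11:67199852-67200101 for Myh1, chr11:67170777-67171026 for Myh2 and chr11:67276874-67277123 for Myh8. Capitals mark TTCTAATTATATCC, the longest run of letters that all 4 windows hold, and TATAAAAG, a TATA box sequence.
Myh4: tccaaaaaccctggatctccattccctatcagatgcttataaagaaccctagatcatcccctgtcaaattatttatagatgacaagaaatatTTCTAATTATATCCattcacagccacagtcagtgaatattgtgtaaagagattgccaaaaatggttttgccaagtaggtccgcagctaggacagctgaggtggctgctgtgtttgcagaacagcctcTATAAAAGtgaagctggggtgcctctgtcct
Myh1: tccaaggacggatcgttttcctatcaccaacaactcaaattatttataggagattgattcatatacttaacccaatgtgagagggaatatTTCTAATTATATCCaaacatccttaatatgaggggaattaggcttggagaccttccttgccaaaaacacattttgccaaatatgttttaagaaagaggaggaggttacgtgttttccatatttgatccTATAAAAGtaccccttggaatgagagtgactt
Myh2: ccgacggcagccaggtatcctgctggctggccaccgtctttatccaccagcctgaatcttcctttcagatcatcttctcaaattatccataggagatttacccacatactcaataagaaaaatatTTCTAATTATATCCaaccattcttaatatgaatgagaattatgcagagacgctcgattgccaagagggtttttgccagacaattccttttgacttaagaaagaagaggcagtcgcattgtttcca
Myh8: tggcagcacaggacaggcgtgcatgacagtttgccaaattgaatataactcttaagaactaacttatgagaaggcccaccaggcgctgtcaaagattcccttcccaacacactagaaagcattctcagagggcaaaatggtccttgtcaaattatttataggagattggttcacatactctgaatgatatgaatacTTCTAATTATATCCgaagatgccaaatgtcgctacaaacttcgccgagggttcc

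The run of 14 letters began at position -158 from the start in Myh4, -160 in Myh1, -125 in Myh2 and -54 in Myh8. On either strand it was present in 4 of 32851 RefSeq windows of the same length (0.0122%), which are these 4. It was found by searching these 4 windows, so its presence in them is by construction. TATAAAAG, held on either strand by 1.51% of the windows, began at position -32 in Myh1, -31 in Myh4 and -29 in Myh3, and in Myh2 it was found only at position 10 after the annotated start, outside the stretch printed. Windows of the other members, up to 50 bases after the start, did not hold it. The E-box CANNTG, held by 66.2% of the windows on either strand, occurred in those of all members other than Myh1 and Myh2, and none of its matches there overlapped a match of the other motifs. For Myh4, the RefSeq start (67237812) lies upstream of the start in the GENCODE annotation (67238029). For Myh1 it (67200102) lies downstream of the GENCODE start (67200052), so the end of the printed stretch, with TATAAAAG, lies within the GENCODE gene. The windows of Myh6 and Myh13 lie wholly within their GENCODE genes. All 9 members matched a RefSeq window, Myh7 through 2 starts. These matches describe letters in a window and were not tested as binding sites.

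The members are close in sequence, so part of their reads could be assigned to more than 1 of them. Of the stretches of 50 bases in the longest coding transcript, 26.7% in Myh1, 26.9% in Myh2, 18.9% in Myh4 and 21.4% in Myh8 occur exactly in another member. Myh6 and Myh7 shared 22.6% and 22.2% of theirs with each other, Myh13 shared 8.45%, Myh3 4.81% and Myh7b none. At 100 bases the shares were 9.73% in Myh1, 9.17% in Myh2 and 3.85% in Myh4. Neither the read length nor the treatment of reads that match several genes is stated, and levels of close members are uncertain to that extent. The kit does not mark strand, and Myh1 shares 515 exonic bases with the antisense gene Myhas, Myh2 237 with 9430073C21Rik, and Myh7 484 with Mhrt, so reads there cannot be told apart. Mhrt, an antisense RNA of the Myh7 locus, was listed at 0 in all 9 libraries.

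The family took 5.29% to 6.53% of all reads assigned to genes in a library, and Myh4 took most of the family's reads. Normalized counts of Myh4 were 2324596, 2324678 and 1942467 in Svil-KO, 2423671, 2610190 and 1983089 in Svil-Mut, and 2068885, 2048132 and 1777797 in WT. Myh4 was the most or second most abundant of all genes in every library (rank 1 to 2), and the genotypes overlapped. Myh1 ranked 17 to 49, Myh2 80 to 1410 and Myh7 1999 to 13669.

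Per kb of the longest coding transcript, the order Myh4, Myh1, Myh2 and then the rest held in each genotype without overlap between these neighbours. In Svil-KO, Myh4 had 365234 ± 36677 normalized counts per kb, Myh1 41724 ± 8442 and Myh2 5651 ± 1302 (SD, n = 3). In Svil-Mut, the levels per kb were 388794 ± 53526 for Myh4, 24844 ± 11792 for Myh1 and 2241 ± 1530 for Myh2 (SD, n = 3). In WT they were 326619 ± 26995 for Myh4, 37809 ± 7138 for Myh1 and 6311 ± 1139 for Myh2 (SD, n = 3). The fast classes thus ran from IIb down to IIa in every genotype, and the other 6 members together made up only 0.0424% to 0.160% of the family total in a library.

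Among those 6, the order was less firm. In Svil-KO it was Myh7, Myh8, Myh13, Myh3, Myh6 and Myh7b, from 143 ± 220 to 29.3 ± 12.2 normalized counts per kb (SD, n = 3). In Svil-Mut it was Myh8, Myh13, Myh6, Myh7b, Myh3 and Myh7, from 101 ± 11.2 to 17.4 ± 13.4, and in WT it was Myh8, Myh13, Myh6, Myh3, Myh7b and Myh7, from 164 ± 108 to 26.5 ± 23.3 (SD, n = 3 each). Only Myh8 stood above its next neighbour, Myh13, without overlap in each genotype. The other neighbours among the 6 overlapped. Per kb of all annotated exons, where Myh8 counts as 11.772 kb, Myh8 and Myh13 overlapped in all 3 genotypes and Myh13 came first in Svil-Mut.

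**Figure D1:**
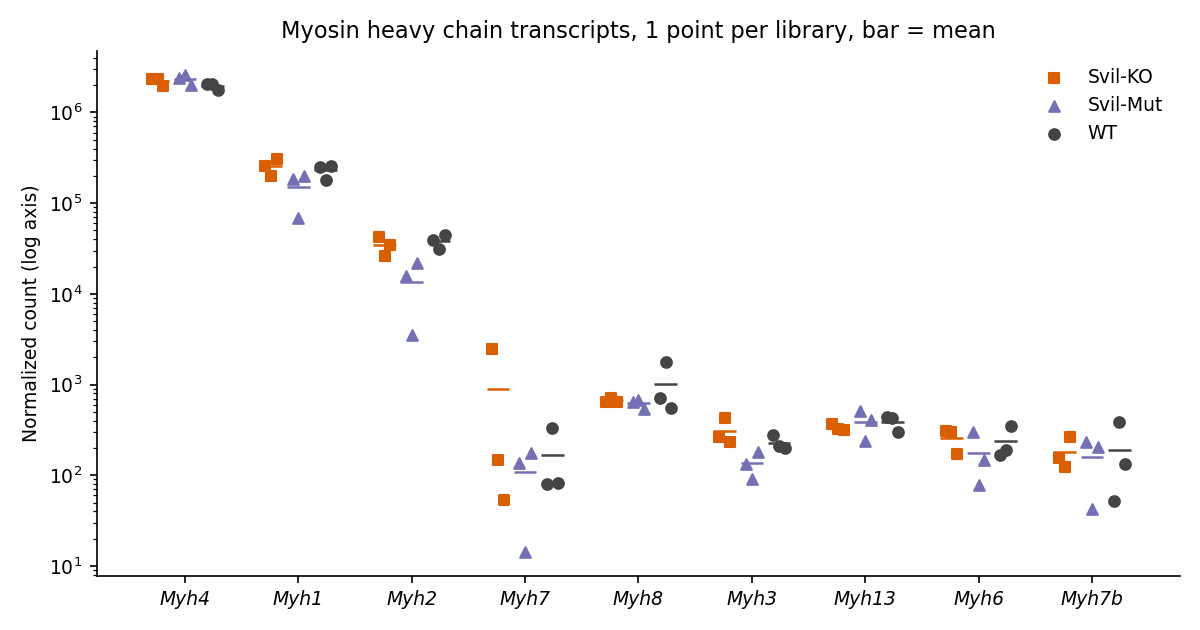
Normalized counts of the 9 members on a log axis, 1 point per library, with Svil-KO as squares, Svil-Mut as triangles, WT as circles and short bars at the means. Myh4, Myh1 and Myh2 sit far above the other members, the Svil-Mut points of Myh2 lie between 3474 and 21748, and 1 Svil-KO point of Myh7 lies at 2476.

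Svil-Mut against WT asks whether the makeup of the myosin family differs in the mutant. None of the 9 members passed the test (limma, adjusted p from 0.325 to 0.976), against 0.0393% of the 15279 genes tested. An unadjusted p under 0.05 was found for 2 of 9 members, Myh2 and Myh3, against 10% of all tested genes. The libraries did not overlap for 2 of 9 members, Myh2 and Myh3, both lower in Svil-Mut, where 6.81% of all tested genes were lower without overlap and 13.9% did not overlap in either direction. Of the 9 log2 fold changes, 1 was positive and 8 were negative, with a median of -0.56 against -0.0046 over all tested genes. In a whole muscle, fewer fibres of a type and less RNA per fibre cannot be told apart.

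Myh2, the IIa chain, had the largest log2 fold change in size. Its normalized counts were 15669, 3474 and 21748 in Svil-Mut, against 39184, 31100 and 44893 in WT. All 3 Svil-Mut libraries lay below all 3 WT libraries, and Svil-Mut replicate 2 was far below the other two. The Svil-Mut mean was 35.5% of the WT mean, and the log2 fold change was -1.84 ± 0.52 (SE; limma unadjusted p = 0.00501, adjusted p = 0.325). Without Svil-Mut replicate 2 it was -1.04, and the Svil-Mut libraries still lay below those of WT.

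Myh1, the IIx chain, had 183764, 68852 and 200618 normalized counts in Svil-Mut, against 251009, 179997 and 258741 in WT. Svil-Mut replicate 2 was again the lowest, and the other Svil-Mut libraries lay within the WT range (log2 fold change -0.73 ± 0.34 SE, limma adjusted p = 0.508). Without that library the log2 fold change was -0.24. Myh4, the IIb chain, averaged 2338983 ± 322014 normalized counts in Svil-Mut and 1964938 ± 162401 in WT (SD, n = 3 each), with overlapping libraries (log2 fold change 0.25 ± 0.12 SE, limma adjusted p = 0.546).

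Myh7, the slow chain, had 136, 14.3 and 174 normalized counts in Svil-Mut, against 79.9, 333 and 82.5 in WT. The groups overlapped (log2 fold change -0.87 ± 1.30 SE, limma adjusted p = 0.881), and Svil-Mut replicate 2, with 15 reads, held the lowest value of the series. Without it the log2 fold change was 0.24, so the direction of Myh7 rested on that library.

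Shares of the family total give the same comparison without the scaling between libraries. The Myh2 share was 0.597%, 0.129% and 0.985% in Svil-Mut, against 1.66%, 1.37% and 2.16% in WT. It averaged 0.571% ± 0.429 in Svil-Mut and 1.73% ± 0.395 in WT (SD, n = 3 each), and the exact 2-sided permutation p was 0.1, the smallest that 3 against 3 libraries allow. The lowest Myh2 share, in Svil-Mut replicate 2, had a Wilson 95% interval of 0.125% to 0.134% over 2811151 family reads, which covers counting error only. The IIa share was therefore lower in each mutant mouse than in each WT mouse.

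The Myh1 share was 7.0%, 2.57% and 9.09% in Svil-Mut, against 10.6%, 7.96% and 12.4% in WT (exact 2-sided permutation p = 0.2). The Myh4 share was 92.3%, 97.3% and 89.9% in Svil-Mut, against 87.6%, 90.5% and 85.3% in WT (exact 2-sided permutation p = 0.2). Both overlapped between the genotypes. Myh4 exceeded Myh1 37.9-fold in Svil-Mut replicate 2, and 6.39-fold to 13.2-fold in the other 8 libraries. The ratio of Myh1 to Myh2 was 9.22 to 19.8 in Svil-Mut and 5.76 to 6.41 in WT.

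**Figure D2:**
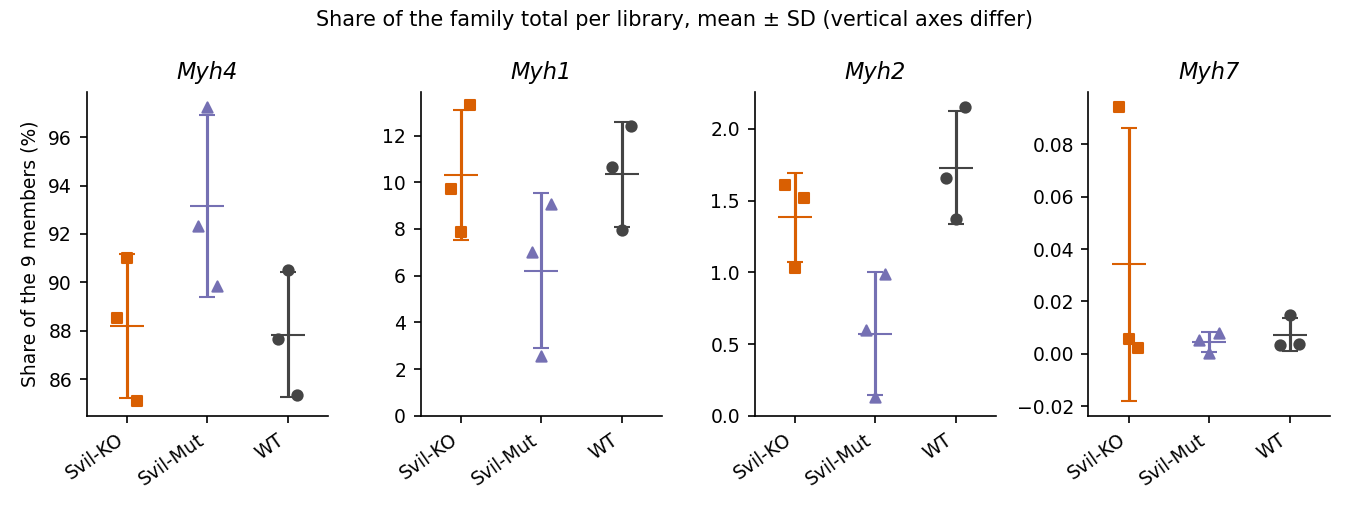
Share (percent) of the summed normalized counts of the 9 members taken by Myh4, Myh1, Myh2 and Myh7 in each library. Mean ± SD are shown for Svil-KO, Svil-Mut and WT. Vertical axes differ, and those for Myh4 and Myh7 do not start at 0. The Svil-Mut points of Myh2, 0.129% to 0.985%, lie below all points of Svil-KO (1.03% to 1.61%) and WT (1.37% to 2.16%).

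Svil-KO against WT asks the same of the knockout. None of the 9 members passed (limma, adjusted p = 0.997 for each), against 0% of all tested genes. None of the 9 had an unadjusted p under 0.05 either, against 4.11% of all tested genes. All 9 overlapped between the genotypes, where 10.7% of all tested genes did not (5.2% higher and 5.45% lower in Svil-KO). The 9 log2 fold changes, 6 positive and 3 negative, had a median of 0.16 against 0.0031 over all tested genes.

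Myh4 averaged 2197247 ± 220646 normalized counts in Svil-KO, against 1964938 ± 162401 in WT (SD, n = 3 each; log2 fold change 0.16 ± 0.12 SE). Myh1 had 255406, 201564 and 304195 in Svil-KO, within or near the WT values given above (log2 fold change 0.14 ± 0.34 SE). Myh2 had 42185, 26347 and 34600 in Svil-KO (log2 fold change -0.17 ± 0.52 SE). All 3 fast isoforms overlapped WT, although 2 of the 3 Svil-KO libraries lay above the WT range of Myh4. The shares differed by less than the SD of WT, with 88.2% ± 2.97 in Svil-KO and 87.8% ± 2.59 in WT for Myh4 (SD, n = 3 each). For Myh1 they were 10.3% ± 2.76 in Svil-KO against 10.3% ± 2.25 in WT, and for Myh2 1.38% ± 0.309 in Svil-KO against 1.73% ± 0.395 in WT (SD, n = 3 each). The exact 2-sided permutation p was 0.8 for Myh4, 0.9 for Myh1 and 0.4 for Myh2.

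Myh7 stood out in 1 knockout library. It had 2476, 147 and 53.4 normalized counts in Svil-KO, against 79.9, 333 and 82.5 in WT. Svil-KO replicate 1 held 0.0943% of its family total as Myh7, and the other 8 libraries 0.000534% to 0.0147%. The other Svil-KO libraries lay around the WT values, so the group spread exceeded the difference (log2 fold change 1.05 ± 1.30 SE). Without Svil-KO replicate 1 the log2 fold change was -0.55, and the exact 2-sided permutation p of the share with all libraries was 0.7.

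Svil-KO against Svil-Mut compares the 2 altered genotypes directly, and shares its libraries with both comparisons above. None of the 9 members passed (limma, adjusted p from 0.244 to 0.943), against 0.0458% of all tested genes. An unadjusted p under 0.05 was found for 3 of 9 members, Myh1, Myh2 and Myh3, against 10.2% of all tested genes. The libraries did not overlap for the same 3 of 9 members, Myh1, Myh2 and Myh3, all higher in Svil-KO, where 7.55% of all tested genes were higher without overlap and 15.2% did not overlap in either direction. Of the log2 fold changes, 7 were positive and 2 negative, with a median of 0.73 against 0.0089 over all tested genes.

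Myh2 averaged 34377 ± 7921 normalized counts in Svil-KO, against 13630.5 ± 9306 in Svil-Mut (SD, n = 3 each; log2 fold change 1.67 ± 0.52 SE, limma adjusted p = 0.333). Myh1 averaged 253722 ± 51336 in Svil-KO, against 151078 ± 71707 in Svil-Mut (SD, n = 3 each; log2 fold change 0.88 ± 0.34 SE, limma adjusted p = 0.432). Without Svil-Mut replicate 2 the log2 fold changes were 0.87 for Myh2 and 0.38 for Myh1. Every knockout library held more IIa and IIx transcript than every mutant library, though for Myh1 the gap between the lowest Svil-KO value, 201564, and the highest Svil-Mut value, 200618, was small. The Myh2 share was 0.81 percentage points higher in Svil-KO (exact 2-sided permutation p = 0.1), and the Myh1 shares overlapped (p = 0.2 by the same exact permutation test).

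Over all 3 genotypes at once, the Myh2 share gave an exact permutation p of 0.0214, unadjusted, over 1680 assignments of the 9 libraries. The same p was 0.154 for Myh4, 0.211 for Myh1 and 0.682 for Myh7. These belong to 16 share tests, of 4 isoforms in 3 pairs and over 3 genotypes, and 0.0214 becomes 0.343 with Benjamini-Hochberg adjustment over them. For Myh2 it was 0.0571 without Svil-Mut replicate 1, 0.0607 without Svil-Mut replicate 2 and 0.075 without WT replicate 4.

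**Figure D3:**
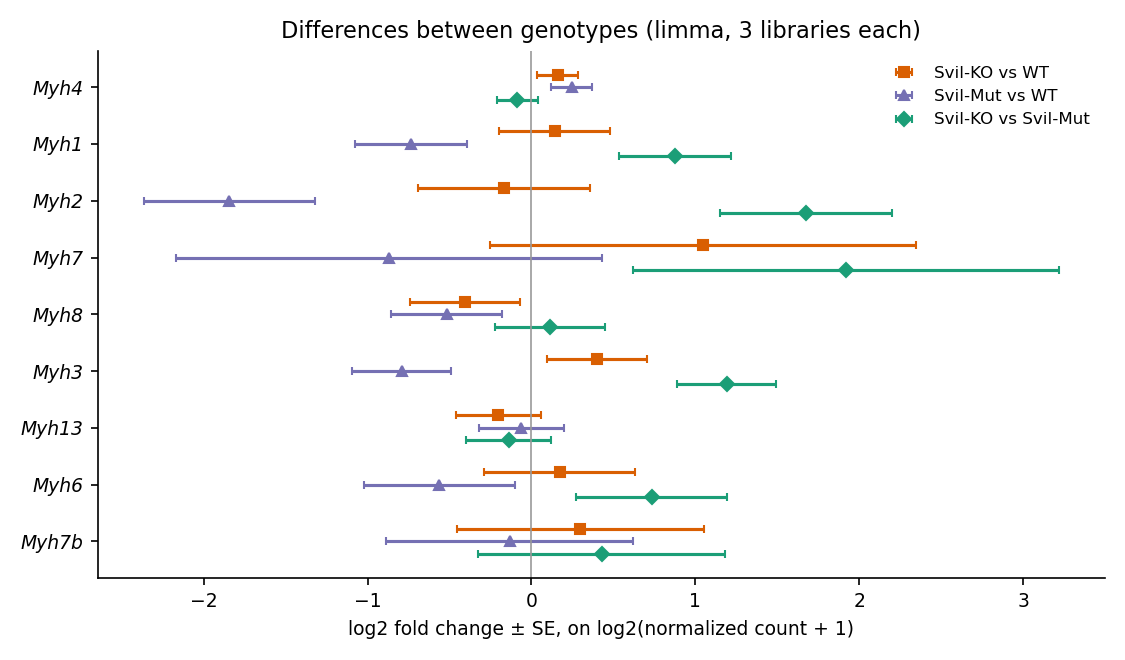
log2 fold change ± SE of each member in the 3 comparisons (limma, on log2 of the normalized count plus 1, 3 libraries per genotype), with squares for Svil-KO against WT, triangles for Svil-Mut against WT and diamonds for Svil-KO against Svil-Mut. Myh2 lies at -1.84 in Svil-Mut against WT and 1.67 in Svil-KO against Svil-Mut, and Myh7 has the widest error, 1.30.

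Counts assigned to the developmental isoforms were low in all adult muscles, and part of them could be reads of close members, as given above. Myh3, the embryonic chain, had 264, 432 and 233 normalized counts in Svil-KO, 134, 90.7 and 181 in Svil-Mut, and 275, 211 and 199 in WT. The Svil-Mut libraries lay below all others, and the Svil-KO libraries overlapped WT. The log2 fold change was -0.79 ± 0.30 in Svil-Mut against WT (SE; limma unadjusted p = 0.0247, adjusted p = 0.426) and 1.19 ± 0.30 in Svil-KO against Svil-Mut (SE; limma unadjusted p = 0.00247, adjusted p = 0.244). DESeq2 on whole reads called Myh3 in Svil-KO against Svil-Mut (adjusted p = 0.0255, over alternatives 0.0255 to 0.502), the only call of a member under any alternative run. In that comparison DESeq2 called 212 of the 15279 genes that passed the filter, where limma called 7.

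Myh8, the perinatal chain, had 638, 718 and 644 normalized counts in Svil-KO, 640, 674 and 541 in Svil-Mut, and 709, 1770 and 548 in WT. WT replicate 3 stood far above the other 8 libraries, which lay between 541 and 718. The log2 fold change of Svil-KO against WT was -0.41 ± 0.34 (SE; limma adjusted p = 0.997), and 0.10 without WT replicate 3. In Svil-Mut against WT it was -0.52 ± 0.34 (SE; limma adjusted p = 0.655), and -0.017 without WT replicate 3.

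The isoforms of other muscles were low and overlapped between all genotypes. Myh13 had 313 to 365 normalized counts in Svil-KO, 239 to 506 in Svil-Mut and 303 to 434 in WT. Myh6 had 171 to 310 in Svil-KO, 78.3 to 298 in Svil-Mut and 166 to 353 in WT. Myh7b had 122 to 266 in Svil-KO, 42.0 to 234 in Svil-Mut and 51.4 to 387 in WT. Svil-Mut replicate 2 held the lowest value of the series for each of Myh13, Myh6 and Myh7b, as for Myh1, Myh2, Myh3 and Myh7. Their largest log2 fold change in size was 0.73 ± 0.46, for Myh6 in Svil-KO against Svil-Mut (SE; limma adjusted p = 0.627), and 0.27 without Svil-Mut replicate 2.

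Heart markers other than Hcn4 had at most 16.7 normalized counts in a library. Of the 5 listed (Nppa, Nppb, Myl7, Tnni3 and Hcn4), Nppb and Myl7 were at 0 in every library, and up to 3 of 5 were at 0 in a Svil-KO library and up to 4 of 5 in a Svil-Mut or WT library. Their summed normalized count was 94.8 to 172 in Svil-KO, 91.6 to 159 in Svil-Mut and 126 to 168 in WT, most of it Hcn4, a pacemaker channel, with 125 ± 40.7 in Svil-KO, 121 ± 36.2 in Svil-Mut and 139 ± 25.7 in WT (SD, n = 3 each).

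A list of 13 genes of slow and oxidative fibres, contractile ones such as Tnnt1 and others such as Mb, was read beside the family. None of the 13 listed passed in any comparison (limma). In Svil-Mut against WT all 13 log2 fold changes were negative, with a median of -1.06 (-0.49 without Svil-Mut replicate 2), and 3 of 13 were lower without overlap, against 6.81% of all tested genes. In Svil-KO against Svil-Mut all 13 were positive, with a median of 1.33 (0.90 without Svil-Mut replicate 2). There, 5 of 13 (Mb, Csrp3, Ankrd2, Tnni1 and Myl6b) were higher without overlap, against 7.55% of all tested genes. In Svil-KO against WT, 8 were positive and 5 negative, with a median of 0.32 (-0.12 without Svil-KO replicate 1), and 1 of 13, Myoz2, was lower without overlap, near the 5.45% of all tested genes.

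Mb, the oxygen store myoglobin, had 60350, 37001 and 37642 normalized counts in Svil-Mut, against 95259, 74244 and 107775 in WT (log2 fold change -1.06 ± 0.21 SE, limma adjusted p = 0.164). All Svil-Mut libraries lay below WT and below Svil-KO, whose values were 96442, 69834 and 103818. Csrp3, the muscle LIM protein of the Z-disc, averaged 596 ± 429 in Svil-Mut and 3069 ± 1407 in WT (SD, n = 3 each; log2 fold change -2.64 ± 0.58 SE, limma adjusted p = 0.228). Myoz2, a calcineurin-binding Z-disc protein of slow fibres, averaged 632 ± 471 in Svil-Mut and 1649 ± 103 in WT (SD, n = 3 each; log2 fold change -1.73 ± 0.48 SE, limma adjusted p = 0.311). These 3 genes were the ones of the list that did not overlap between Svil-Mut and WT. Its contractile genes Myl2, Myl3, Tnnt1, Tnni1, Tnnc1 and Tpm3 overlapped.

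In Svil-KO replicate 1 several slow genes were high together with Myh7. The slow list lay at a median of 1.19 above the WT mean on the log2 scale in that library, with -0.24 and -0.09 for the other Svil-KO libraries. Tnnt1, the slow troponin T, had 1943 normalized counts there, 404 and 358 in the remaining Svil-KO libraries, and 260.3, 630.4 and 424 in WT. Tnnc1, the slow and cardiac troponin C, had 1429 there, 181 to 200 in the other Svil-KO libraries and 103 to 281 in WT. Atp2a2, the slow calcium pump SERCA2, had 4505 there, 1309 to 1390.0 in the other Svil-KO libraries and 1083 to 1414 in WT. Svil-Mut replicate 2 was the opposite case, with a slow list median of -2.64 against -0.71 and -0.26 in the other Svil-Mut libraries.

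**Figure D4:**
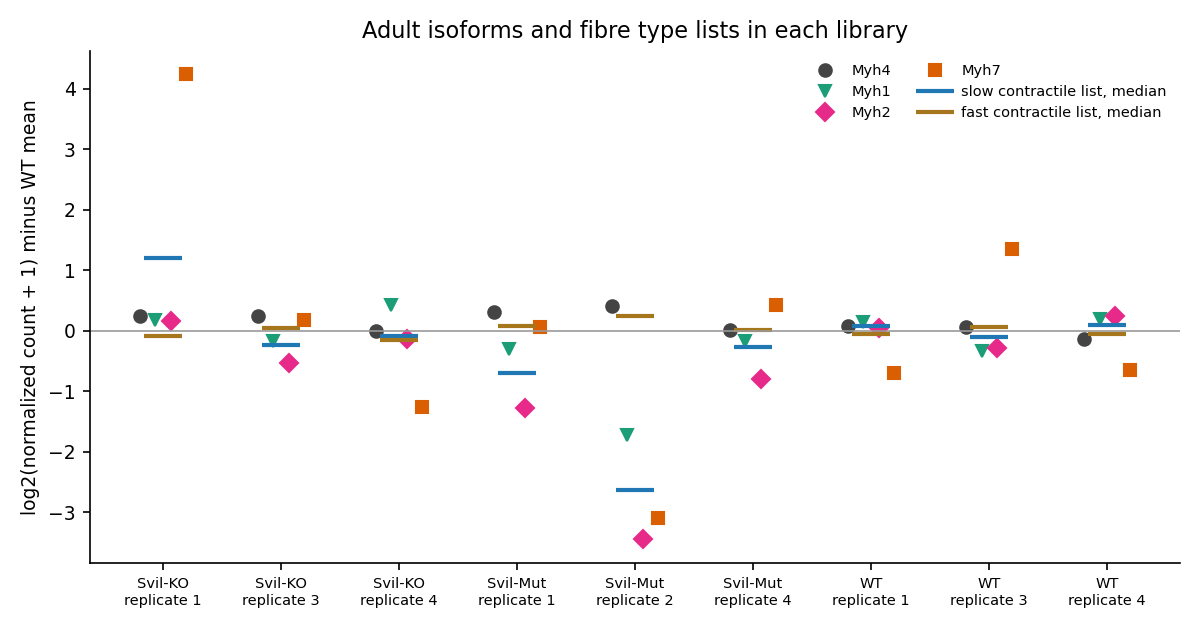
Each library's log2(normalized count + 1) minus the WT mean for Myh4, Myh1, Myh2 and Myh7 (points). Bars give the median of the same quantity over the 13 genes of the slow list and the 11 of the fast list. Svil-KO replicate 1 has high Myh7 and a slow list median of 1.19, and Svil-Mut replicate 2 has low Myh1, Myh2 and Myh7 and a slow list median of -2.64.

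The fast fibre genes listed had smaller log2 fold changes. None of the 11 passed in any comparison (limma). Against WT, 10 of 11 log2 fold changes in Svil-Mut were positive, with a median of 0.12 (0.05 without Svil-Mut replicate 2), and 2 of 11 were higher without overlap, against 7.13% of all tested genes. In Svil-KO against Svil-Mut 10 of 11 were negative, with a median of -0.17, and 5 (Tnnt3, Tnni2, Actn3, Atp2a1 and Pvalb) were lower without overlap, where 7.66% of all tested genes were. In Svil-KO against WT the median was -0.06, with 3 positive, 8 negative and none apart.

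Atp2a1, the fast calcium pump SERCA1, averaged 1648473 ± 89197 normalized counts in Svil-Mut and 1404826 ± 60579 in WT (SD, n = 3 each; log2 fold change 0.23 ± 0.079 SE, limma adjusted p = 0.394). Tnnt3, the fast troponin T, averaged 856108 ± 48638 in Svil-Mut and 764993 ± 29152 in WT (SD, n = 3 each; log2 fold change 0.16 ± 0.080 SE, limma adjusted p = 0.538). These 2 did not overlap. Actn3, the Z-disc actinin of fast fibres, had the largest log2 fold change of the list, 0.42 ± 0.13 (SE; limma adjusted p = 0.350), with overlapping libraries.

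Among 28 regulators of fibre type, none passed in any comparison (limma). In Svil-Mut against WT, 5 (Maf, Mafa, Sox6, Tead1 and Nfatc4) were higher and 2 lower without overlap, where 7.13% and 6.81% of all tested genes were, and the median log2 fold change was 0.10. Maf, a large Maf factor that drives IIb genes in the mouse, averaged 2946 ± 537 normalized counts in Svil-Mut and 1854 ± 232 in WT (SD, n = 3 each; log2 fold change 0.66 ± 0.19 SE, limma adjusted p = 0.326). Mafa, of the same family and with the same role, averaged 1692 ± 143 in Svil-Mut and 1267 ± 185 in WT (SD, n = 3 each; log2 fold change 0.42 ± 0.13 SE, limma adjusted p = 0.349). Both were higher in every Svil-Mut library than in any Svil-KO or WT library.

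Lower without overlap were Mef2c, a muscle transcription factor (log2 fold change -0.22 ± 0.065 SE, limma adjusted p = 0.326), and Esrrg, a nuclear receptor of oxidative metabolism (-0.61 ± 0.21 SE, limma adjusted p = 0.398). In Svil-KO against Svil-Mut, 2 regulators (Mef2c and Ppargc1a) were higher and 4 lower without overlap, where 7.55% and 7.66% of all tested genes were. The median was -0.05, and 0.0079 without Svil-Mut replicate 2. The lower 4 were Mafa (log2 fold change -0.66), Maf (-0.77), Sox6, a repressor of slow genes (-0.23), and Ppp3ca, a catalytic subunit of calcineurin (-0.25), with limma adjusted p from 0.152 to 0.412. In Svil-KO against WT the median was 0.04. There, 2 of 28 were higher without overlap, near the 5.2% of all tested genes, and none were lower without overlap. Prox1, a homeobox factor of slow fibres, was higher without overlap in that comparison, at 33.6 ± 28.4 normalized counts in Svil-KO, against 5.53 ± 3.23 in WT (SD, n = 3 each; log2 fold change 2.21 ± 0.95 SE, limma adjusted p = 0.997). In Svil-Mut it had 22.5 ± 28.3 (SD, n = 3).

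Of 14 genes for thick filament assembly and the M-band, none passed (limma). Myom3, a myomesin of the M-band of intermediate-speed fibres, came nearest. It had 221, 64.0 and 152 normalized counts in Svil-Mut, against 656, 886 and 625 in WT, with no overlap (log2 fold change -2.46 ± 0.37 SE, limma adjusted p = 0.0531). In Svil-KO it had 540.3, 390.3 and 460.1, above every Svil-Mut library (log2 fold change 1.82 ± 0.37 SE for Svil-KO against Svil-Mut, limma adjusted p = 0.152) and below every WT library (-0.63 ± 0.37 SE, limma adjusted p = 0.997).

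Mybpc1, the slow myosin-binding protein C, was also lower without overlap in Svil-Mut than in WT (log2 fold change -0.32 ± 0.11 SE, limma adjusted p = 0.401). The medians of the list were -0.02 in Svil-KO against WT, 0.10 in Svil-Mut against WT and -0.06 in Svil-KO against Svil-Mut. Smyd1, a methyltransferase needed for myosin assembly, was higher without overlap in Svil-KO than in WT (log2 fold change 0.19 ± 0.11 SE, limma adjusted p = 0.997). Ttn, the titin spring that spans the half-sarcomere, overlapped between Svil-Mut and WT (log2 fold change 0.40 ± 0.14 SE, limma adjusted p = 0.404).

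Of 13 genes of muscle regeneration and development, 11 were tested and none passed (limma). Their medians were 0.05 in Svil-KO against WT, 0.15 in Svil-Mut against WT and 0.05 in Svil-KO against Svil-Mut. Each of these medians turned sign when some single library was left out, running from -0.03 to 0.22, from -0.02 to 0.29 and from -0.11 to 0.31 in the same order. In Svil-Mut against WT, 1 of 11 was higher and 1 lower without overlap, near the 7.13% and 6.81% of all tested genes. Myod1, the myogenic factor of fast fibres and activated satellite cells, was higher without overlap in Svil-Mut, with 2863 ± 685 normalized counts against 1830 ± 189 in WT (SD, n = 3 each; log2 fold change 0.62 ± 0.17 SE, limma adjusted p = 0.292). Myf5, a marker of satellite cells, was lower without overlap in Svil-Mut, with 20.1 ± 8.07 against 45.9 ± 5.70 in WT (SD, n = 3 each; log2 fold change -1.23 ± 0.62 SE, limma adjusted p = 0.545). Pax7, the satellite cell factor, had 13.0 ± 9.09 in Svil-KO, against 9.87 ± 12.5 in WT (SD, n = 3 each). Of the 11 log2 fold changes in Svil-Mut against WT, 7 were positive and 4 negative, while that of Myh3 was negative.

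Other myosin II heavy chain genes, not among the members, were measured beside the family. Of Myh9, Myh10, Myh11, Myh14 and Myh15, 4 were tested and none passed (limma), with medians of 0.04 in Svil-KO against WT, -0.22 in Svil-Mut against WT and 0.18 in Svil-KO against Svil-Mut, of which that of Svil-KO against WT ran from -0.08 to 0.18 with 1 library left out. In Svil-KO against Svil-Mut, 2 of the 4, Myh14 and Myh10, were higher without overlap, against 7.55% of all tested genes. Their log2 fold changes were 0.23 and 0.45 (limma adjusted p = 0.511 and 0.560). Noncoding RNAs of the cluster did not pass either (limma adjusted p from 0.748 to 0.997). 2310065F04Rik, a lincRNA between Myh3 and Myh2, had 7978 ± 272 normalized counts in Svil-KO, 8085 ± 626 in Svil-Mut and 8498 ± 837 in WT (SD, n = 3 each). Myhas, an antisense RNA, starts between Myh1 and Myh4 at 67237573 on the minus strand and runs into the end of Myh1. It had 1714 ± 209 in Svil-KO, 2069 ± 556 in Svil-Mut and 1928 ± 371 in WT (SD, n = 3 each), and was named after its values were seen.

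Across the 9 libraries, which share the size factors, the genotypes and the libraries that stand apart, likeness to the 4 adult isoforms was described by Pearson's r of log2(normalized count + 1) among 10919 genes. The genes most like Myh2 were Cd200, a surface glycoprotein (r = 0.99), Myoz2 (0.98) and Actn2, the actinin of all fibres (0.97). Cd200 had 839, 425 and 1128 normalized counts in Svil-Mut, against 1405, 1269.9 and 1417 in WT. The genes least like Myh2 were Dnajb1, a heat shock co-chaperone, Sox9 and Rab1a, each at r = -0.96. Dnajb1 had 3109 normalized counts in Svil-Mut replicate 2, 802 and 589 in the other Svil-Mut libraries, and 350.1 to 381 in WT.

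The genes most like Myh7 were slow fibre genes, Tnnt1 and Tpm3 (r = 0.96 each) and Tnnc1 (0.94), and those least like it were Alkbh8, Lpcat3 and Dolpp1 (-0.93 to -0.92). Most like Myh1 were Pex5, Uaca and Actn2 (r = 0.96 each), and least like it Mphosph9, Capzb and Cept1 (-0.96 each). Most like Myh4 were Gramd4 (r = 0.97), Bpnt2 (0.96) and Rxylt1 (0.95), and least like it Ctns, Ripor1 and Asb16 (-0.93 each). Within the family, Myh1 and Myh2 were the most alike (r = 0.95, Spearman's rho = 0.8), and Myh2 and Myh4 the least (r = -0.71, rho = -0.65). With many genes searched over 9 libraries, values of this size describe these libraries only.

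Markers of other cell types were read beside these results, red blood cells first. The 5 red cell markers (haemoglobin chains and Alas2) summed to 2627 to 6208 normalized counts in Svil-KO, 6545 to 49200 in Svil-Mut and 4413 to 8134 in WT, with the highest value in Svil-Mut replicate 4, 14264 in replicate 2 and none at 0. Their median log2 fold change was 1.64 in Svil-Mut against WT, -0.49 in Svil-KO against WT and -2.16 in Svil-KO against Svil-Mut, and 4 of 5 were lower without overlap in Svil-KO than in Svil-Mut, against 7.66% of all tested genes. Without Svil-Mut replicate 4 the median was 0.84 in Svil-Mut against WT and -1.39 in Svil-KO against Svil-Mut, and without Svil-KO replicate 3 it was -0.09 in Svil-KO against WT. The 6 adipocyte markers summed to 8344 to 9490 in Svil-KO, 6983 to 10304 in Svil-Mut and 9386 to 11163 in WT, and up to 2 of 6 were at 0 in Svil-Mut. Their median log2 fold change was -1.35 in each comparison against WT, and 0.15 in Svil-KO against Svil-Mut. With 1 library left out, it was -1.36 to -0.64 in Svil-KO against WT (highest without WT replicate 3), -2.58 to -0.47 in Svil-Mut against WT (lowest without Svil-Mut replicate 4 and highest without Svil-Mut replicate 2) and -0.28 to 0.96 in Svil-KO against Svil-Mut. No red cell or adipocyte marker passed (limma, smallest adjusted p = 0.301). The part of these cells in the differences of Myh2, Myh3 and the slow list was not tested.

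No marker of the remaining cell types passed either (limma). Sums were 5173 to 6468 in Svil-KO, 4845 to 6431 in Svil-Mut and 4904 to 7323 in WT for 5 endothelial markers, all present. For 5 leukocyte markers they were 187 to 433 in Svil-KO, 91.6 to 461 in Svil-Mut and 185 to 298 in WT, with up to 1 marker at 0. The 5 fibro-adipogenic markers summed to 18443 to 21094 in Svil-KO, 14915 to 20179 in Svil-Mut and 18550 to 25994 in WT. The 4 smooth muscle markers summed to 5497 to 5948 in Svil-KO, 5637 to 6694 in Svil-Mut and 6012 to 6737 in WT. The 4 Schwann cell markers summed to 2048 to 3445 in Svil-KO, 1788 to 2466 in Svil-Mut and 2238 to 2719 in WT, and the 4 tendon markers to 3864 to 8883 in Svil-KO, 2436 to 5076 in Svil-Mut and 3091 to 6961 in WT. Mitochondrial transcripts took 5.87% to 6.56% of reads in Svil-KO, 3.93% to 5.03% in Svil-Mut and 5.32% to 6.51% in WT, so the mutant libraries lay below the others, and the part of this in the slow list was not tested.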

How the data were processed

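RNA was taken from the left TA of 9 mice. Per the labels' protocols, oligo(dT)-primed, full-length SMARTer v4 cDNA was made into Nextera XT libraries, and all libraries carry the same batch label. Per the submitters' processing notes, HISAT2, featureCounts and DESeq2 were used on mm10; their versions and settings are not stated. Values in the deposited table are a normalized signal, that is, reads counted on each of 56805 genes over the size factor of the library. Whole reads were recovered for 100% of the nonzero values, within 0.01 of a read. No molecular identifiers are described.

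Genes at a normalized count of at least 10 in at least 3 libraries (15279) were tested with limma on log2(normalized count + 1), with a variance trend, all 9 libraries in 1 fit and Benjamini-Hochberg adjustment over all tested genes, and were called at an adjusted p under 0.05. Fold changes on this scale understate those of low genes. Where libraries are said not to overlap, every library of 1 genotype lay beyond every library of the other. Shares of the family total were tested by exact permutation over libraries, 2-sided and unadjusted. Lists are described by counts and medians. The values of 1 listed regulator of fibre type are not reported here. The members and lists were chosen with earlier results of these data known. The named genes are the members, up to 4 genes of each list with the smallest p in a comparison, and the 3 genes most and least like each adult isoform. Other genes were named after their values were seen, to give the members of a small count. The labels do not say that the mice were independent litters, so p-values measure the spread between these mice.

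Same-numbered libraries correlated at -0.056 to 0.044 in their deviations, so the numbers were not taken to pair the libraries. Alternatives were pseudocounts of 0.5 and 10, no filter, a mean of at least 50, equal totals, DESeq2 and edgeR's quasi-likelihood test on whole reads, no variance trend, only the compared genotypes, a replicate block, each library left out, shares per kb of exons and shares of the 4 adult isoforms. Shares per kb of the longest coding transcript were added after seeing the data. The limma steps were tested on simulated data. Sequences came from RefSeq (GRCm38.p6) and gene positions from GENCODE. Tools were Python 3.11.15 with scipy 1.17.1 and matplotlib 3.10.9, and R 4.3.3 with DESeq2 1.42.0, edgeR 4.0.16 and limma 3.58.1.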

Additional observations from a re-analysis of the deposited data

Results flagged for a closer look

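The Myh3 level was marked because all 3 Svil-KO libraries lay above the WT mean and all 3 Svil-Mut libraries below it. Svil-KO libraries had 264, 432 and 233 normalized counts and Svil-Mut libraries 134, 90.7 and 181, against a WT mean of 228. The difference between the 2 effects, which is the log2 fold change of Svil-KO against Svil-Mut, was 1.19 ± 0.30 (SE) and did not pass over all genes (limma adjusted p = 0.244). The mark rests on direction alone and was not itself tested.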

How the results depend on the processing

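Over the 19 alternatives run for each member and comparison, Myh2 stayed negative in Svil-Mut against WT (log2 fold change -2.36 to -1.04, adjusted p 0.0684 to 0.587). Myh3 stayed positive in Svil-KO against Svil-Mut (0.82 to 1.43), where only DESeq2 called it, as 1 of 212 genes. With a replicate block the counts of called genes were 0 in Svil-KO against WT, 7 in Svil-Mut against WT and 6 in Svil-KO against Svil-Mut. The numbers were not taken to pair the libraries, although in Svil-KO and WT each library correlated best with its own number (0.026 to 0.044). Libraries of different numbers there correlated at -0.035 to -0.0023. Correlations this small over few shared numbers cannot decide whether the numbers pair the mice. The block turned the log2 fold change of Myh7 (0.36), Myh7b (0.90) and Myh13 (0.27) in Svil-Mut against WT. It also turned Myh7b (-0.60) and Myh8 (-0.10) in Svil-KO against Svil-Mut, and the Myh7 share difference in Svil-Mut against WT (0.00287 percentage points). Replicate number 2 occurs only in Svil-Mut, so the block fits that library exactly and takes it out of these comparisons. Leaving out that library alone gave 0.24 for Myh7, 0.65 for Myh7b and 0.24 for Myh13 in Svil-Mut against WT. In Svil-KO against Svil-Mut it gave -0.36 for Myh7b and 0.18 for Myh8, which did not turn. The share difference used only the replicate numbers that both genotypes have. The sign of Myh7b in Svil-KO against WT turned with edgeR (-0.075) and DESeq2 (-0.080). The cause was not tested. Depth limits the low members most, with 15 reads of Myh7 in Svil-Mut replicate 2.

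The genes called in Svil-KO against WT were 0 by limma (628 at an unadjusted p under 0.05), 0 by edgeR and 4 by DESeq2. In Svil-Mut against WT they were 6 by limma, and 19 with a pseudocount of 10, 16 with a mean of at least 50, 172 by DESeq2, 14 with only the compared genotypes and 4 to 18 when 1 library was left out. In Svil-KO against Svil-Mut they were 7 by limma, 212 by DESeq2 and 4 to 13 with 1 library left out.

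With 1 library left out, share differences in percentage points in Svil-KO against WT were -1.04 to 1.92 for Myh4, -1.53 to 1.19 for Myh1 and -0.00331 to 0.0427 for Myh7. For Myh7 they were -0.0048 to 0.000867 in Svil-Mut against WT and -0.00050 to 0.0455 in Svil-KO against Svil-Mut. The 3-genotype p of the Myh2 share was 0.0179 to 0.075. Log2 fold changes that turned were, in Svil-KO against WT, Myh1 (-0.027 to 0.30), Myh2 (-0.33 to 0.0092), Myh6 (-0.038 to 0.50), Myh7 (-0.55 to 2.21), Myh7b (-0.41 to 1.03) and Myh8 (-0.75 to 0.10). In Svil-Mut against WT they were Myh7 (-1.51 to 0.24), Myh7b (-0.84 to 0.65) and Myh13 (-0.30 to 0.24). In Svil-KO against Svil-Mut they were Myh4 (-0.20 to 0.00064), Myh7b (-0.36 to 0.87) and Myh13 (-0.45 to 0.093).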
